A study of Mus musculus with 12 samples.

Results

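Newborn cortex in which the histone H3.3 genes had been deleted with Emx1-Cre was compared with newborn cortex in which the same genes had been deleted with Neurod6-Cre. The 8 libraries whose titles name an H3.3 Emx1 dKO (dKO-E, 4 libraries) or an H3.3 Neurod6 dKO (dKO-N, 4 libraries) were taken by title from the 12 RNA libraries of the series. The other 4, labelled control, entered the fit to share the estimate of spread and to give each gene's level in control. All 12 libraries were made from fresh mouse cortex at postnatal day 0, from RNA depleted of ribosomal RNA, by ClickSeq, a method in which cDNA synthesis stops at random and click chemistry joins the adapter. Genotypes are given in the labels as H3.3 Emx1 dKO, H3.3 Neurod6 dKO and control, and the series text calls both knockouts conditional for H3f3a and H3f3b. The sources used here do not give the alleles that the controls carry, the origin of the Cre lines, the deleted part of each gene, the sex of the animals or the number of animals behind a library. P-values therefore measure the spread between libraries, part of which may be technical.

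The histone H3.3 is an H3 protein placed into chromatin without DNA replication, and both H3f3a and H3f3b encode it. The replication-coupled H3 histones are made for dividing cells, so H3.3 is the form that neurons go on adding after their last division. Emx1-Cre acts in the dividing progenitors of the dorsal forebrain and in the cells descended from them, which include excitatory neurons and glia, whereas Neurod6-Cre acts in excitatory neurons that have stopped dividing. The contrast therefore changes the driver, the time of deletion and the set of deleted cells together, and these cannot be told apart.

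Counts in genes ranged from 722080 to 3502017 in dKO-N and from 1452515 to 2503581 in dKO-E. A gene at or under 3 counts was treated as not detected. A level of 3 counts stood for 0.857 to 4.155 per 1000000 unscaled counts in genes, depending on the library. CPM values are counts per 1000000 of the scaled library total. The library labelled dKO-N 4 was the deepest and the other dKO-N libraries held at most 1046240 counts, so depth differed within the group as well as between groups. The libraries labelled dKO-E 3 and 4 held 1035 and 274 counts of 4 Y-linked genes and every other library held 0 to 3, so the test was run on the 47415 autosomal gene lines of the 51912 in each file. Of those, 10660 passed the filter on low counts, and they held 99.06% of all autosomal counts. Because this is bulk tissue, fewer cells of a type and less RNA per cell cannot be told apart in any value given here.

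The targeted genes were read first. In dKO-N the 4 libraries measured 36.3, 30.5, 21.7 and 37.3 CPM of H3f3a (chr1:180800832-180813943, minus strand), and in dKO-E they measured 29.6, 28.2, 25.4 and 22.7 CPM. The ranges overlapped and the difference did not pass the test (log2 fold change -0.32, SE 0.77, edgeR adjusted p = 0.853). The libraries labelled control 1 and 3 held 17.6 and 16.3 CPM of H3f3a, below every knockout library, while control 2 and 4 held 116 and 120 CPM, so the first pair goes against its label on this gene. H3f3b (chr11:116021912-116027962, minus strand) measured 144, 116, 111 and 110 CPM in dKO-N and 167, 175, 178 and 165 CPM in dKO-E. All dKO-E libraries lay above all dKO-N libraries (log2 fold change 0.53, SE 0.15, edgeR adjusted p = 0.0302). Neither knockout lay below control, where H3f3b ranged from 76.0 CPM in control 2 to 142 CPM in control 3. Control 1 and 3 held more H3f3b than control 2 and 4, and every knockout library lay above control 2 and 4. The call between the knockouts was lost in 7 of 8 leave-outs, all but that of dKO-N 1 (adjusted p up to 0.233). Since the deleted part is not given, the H3f3b counts do not check the labels.

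Emx1, a homeobox gene of dorsal forebrain progenitors, did not differ between the knockouts beyond its spread (24.2, 25.9, 20.4 and 20.1 CPM in dKO-N against 21.9, 28.6, 17.3 and 28.8 CPM in dKO-E, edgeR adjusted p = 0.787). Neurod6, a basic helix-loop-helix factor of excitatory neurons, measured 54.3 to 61.9 CPM in dKO-N and 65.6 to 79.4 CPM in dKO-E. The groups did not overlap, but the difference missed the threshold (log2 fold change 0.30, SE 0.12, edgeR adjusted p = 0.135). Both knockouts lay below control, where Neurod6 ranged from 130 to 153 CPM (log2 fold change -1.28 in dKO-N and -0.99 in dKO-E, edgeR adjusted p = 9.07e-11 and 1.74e-09). These 2 comparisons with control share the same 4 libraries, and so do all such pairs of values below.

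The chromosomal neighbourhood of Neurod6 held the largest difference among all tested genes. Promoters of Neurod6 and of the 2 neighbours with the largest differences are printed. Both neighbours start within 1 Mb of Neurod6, and their RNA differed in opposite directions. Each is the stretch from 250 bases before to 50 after the gene's RefSeq start, in build GRCm38.p6, read 5′ to 3′ along the gene's strand. For Itprid1 that start differs from the GENCODE start given below, from which its distance to Neurod6 was taken. Capitals mark the E-box, CANNTG, which reads the same on both strands and is the core recognised by basic helix-loop-helix factors. They lie at chr6:55681214-55681513 (minus strand), chr6:55684321-55684620 (plus strand) and chr6:55836768-55837067 (plus strand).
Neurod6: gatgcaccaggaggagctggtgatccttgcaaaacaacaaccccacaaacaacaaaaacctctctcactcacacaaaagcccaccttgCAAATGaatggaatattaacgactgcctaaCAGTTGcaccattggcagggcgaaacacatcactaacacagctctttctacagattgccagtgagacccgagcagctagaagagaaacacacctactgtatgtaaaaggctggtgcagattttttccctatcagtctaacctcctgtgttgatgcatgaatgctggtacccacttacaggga
Gm3279: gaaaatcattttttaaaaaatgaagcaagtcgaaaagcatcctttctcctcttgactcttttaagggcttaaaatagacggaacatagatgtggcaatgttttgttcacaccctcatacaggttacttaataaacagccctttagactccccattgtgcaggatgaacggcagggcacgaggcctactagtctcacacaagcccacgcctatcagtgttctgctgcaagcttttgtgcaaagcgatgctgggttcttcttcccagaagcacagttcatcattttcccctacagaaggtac
Itprid1: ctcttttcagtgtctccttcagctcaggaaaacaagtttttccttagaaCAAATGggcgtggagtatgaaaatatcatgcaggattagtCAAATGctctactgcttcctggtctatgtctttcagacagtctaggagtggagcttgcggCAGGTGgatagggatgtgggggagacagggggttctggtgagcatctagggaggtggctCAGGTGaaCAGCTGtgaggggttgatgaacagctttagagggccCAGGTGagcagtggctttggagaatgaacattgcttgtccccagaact
The Neurod6 promoter holds 2 E-boxes, that of Gm3279 holds 0 and that of Itprid1 holds 6. Of all 32851 promoters of this length in the RefSeq collection, 72.3% hold at least 1, so a match or its absence describes the letters only.

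Gm3279 is a long noncoding RNA gene (chr6:55684571-55694574, plus strand) whose start lies 3.31 kb from that of Neurod6. It measured 116, 99.8, 93.7 and 121 CPM in dKO-N against 0, 3.22, 1.16 and 2.77 CPM in dKO-E, the latter from 0, 8, 3 and 5 counts. The control libraries held 1.72 to 3.70 CPM, so the dKO-N libraries stood apart from both other groups (log2 fold change of dKO-E against dKO-N -5.80, SE 0.26, edgeR adjusted p = 3.61e-19). Itprid1, which encodes a protein with an inositol trisphosphate receptor interacting domain (chr6:55836895-55978735, plus strand), starts 155.6 kb from Neurod6. It measured 12.1, 11.1, 14.9 and 37.3 CPM in dKO-N and 63.8, 62.0, 70.2 and 63.2 CPM in dKO-E. No library overlapped, and dKO-N 4 lay well above the other 3 of its group (log2 fold change 1.45, SE 0.27, edgeR adjusted p = 0.00386). Both knockouts exceeded control for Itprid1, by 3.02 in dKO-E and 1.57 in dKO-N on the log2 scale (edgeR adjusted p = 6.49e-07 and 0.00635).

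Pde1c, a calcium-dependent phosphodiesterase gene, followed the order of Itprid1. It measured 94.2, 95.2, 107 and 132 CPM in dKO-N and 157, 175, 175 and 175 CPM in dKO-E, with control at 44.3 to 53.6 CPM, and no 2 groups overlapped (log2 fold change between the knockouts 0.63, SE 0.11, edgeR adjusted p = 0.000476). Gars, which encodes glycyl-tRNA synthetase, was higher in dKO-E as well (57.9, 73.9, 46.1 and 63.4 against 92.1, 83.8, 84.8 and 78.1 CPM, log2 fold change 0.45, edgeR adjusted p = 0.0237), and its dKO-E libraries overlapped the control values of 70.6 to 89.4 CPM. Adcyap1r1, the receptor gene for the neuropeptide PACAP, measured 84.8, 74.9, 46.1 and 64.0 CPM in dKO-N and 97.9, 83.4, 107 and 102 CPM in dKO-E, and these ranges overlapped (log2 fold change 0.54, edgeR adjusted p = 0.0122). The calls of Gm3279, Itprid1 and Pde1c held with each knockout library left out in turn. Those of Adcyap1r1 and Gars were lost without dKO-N 4 (adjusted p = 0.0653 and 0.0640) and without dKO-E 3, that of Gars also without dKO-N 3 or dKO-E 1 (highest adjusted p = 0.0753).

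Within 1 Mb of the start of Neurod6, 5 of 8 tested genes were called, 4 higher and 1 lower in dKO-E, where 7.05% of all tested genes were called in either direction. From 1 to 5 Mb the count was 2 of 27 and from 5 to 10 Mb it was 3 of 36, shares of 7.41% and 8.33%. The latter 3 were Ezh2, Smarcad1 and Ndnf, all lower in dKO-E, at -8.09, 9.36 and 9.99 Mb from Neurod6. Around Emx1, on the same chromosome 29.5 Mb away, 1 of 12 genes within 1 Mb was called. That gene was Sfxn5, a mitochondrial carrier gene, with 72.7, 65.6, 63.8 and 71.1 CPM in dKO-N and 54.8, 51.1, 49.7 and 51.0 CPM in dKO-E. The groups did not overlap (log2 fold change -0.42, edgeR adjusted p = 0.0366), and the call was lost without dKO-N 4 or any of dKO-E 2, 3 and 4 (adjusted p up to 0.151). None of 13 tested genes within 1 Mb of H3f3a was called, and none of 39 within 1 Mb of H3f3b. From 1 to 5 Mb the counts were 4 of 56 around Emx1, 4 of 39 around H3f3a and 5 of 68 around H3f3b.

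**Figure D1:**
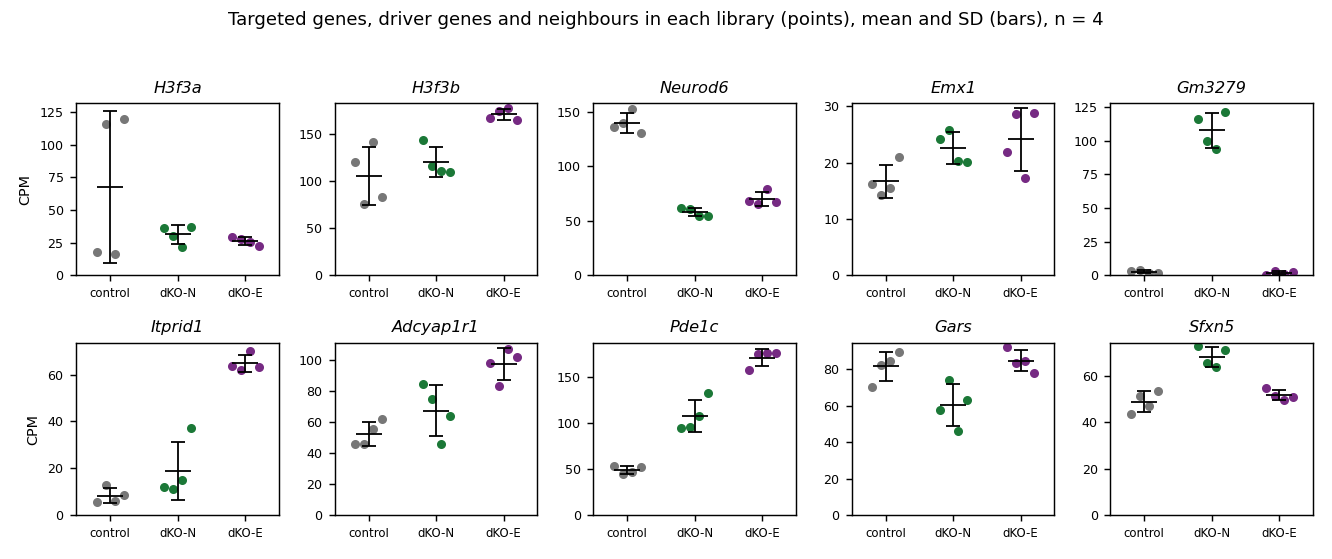
Levels in CPM (vertical axis, starting at 0) of H3f3a, H3f3b, Neurod6, Emx1, 5 genes near Neurod6 and Sfxn5 near Emx1, by group; points are libraries and bars give the mean and SD of 4. Gm3279 lies near 0 in control and dKO-E and between 93.7 and 121 CPM in dKO-N, whereas Itprid1 and Pde1c are highest in dKO-E.

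**Figure D2:**
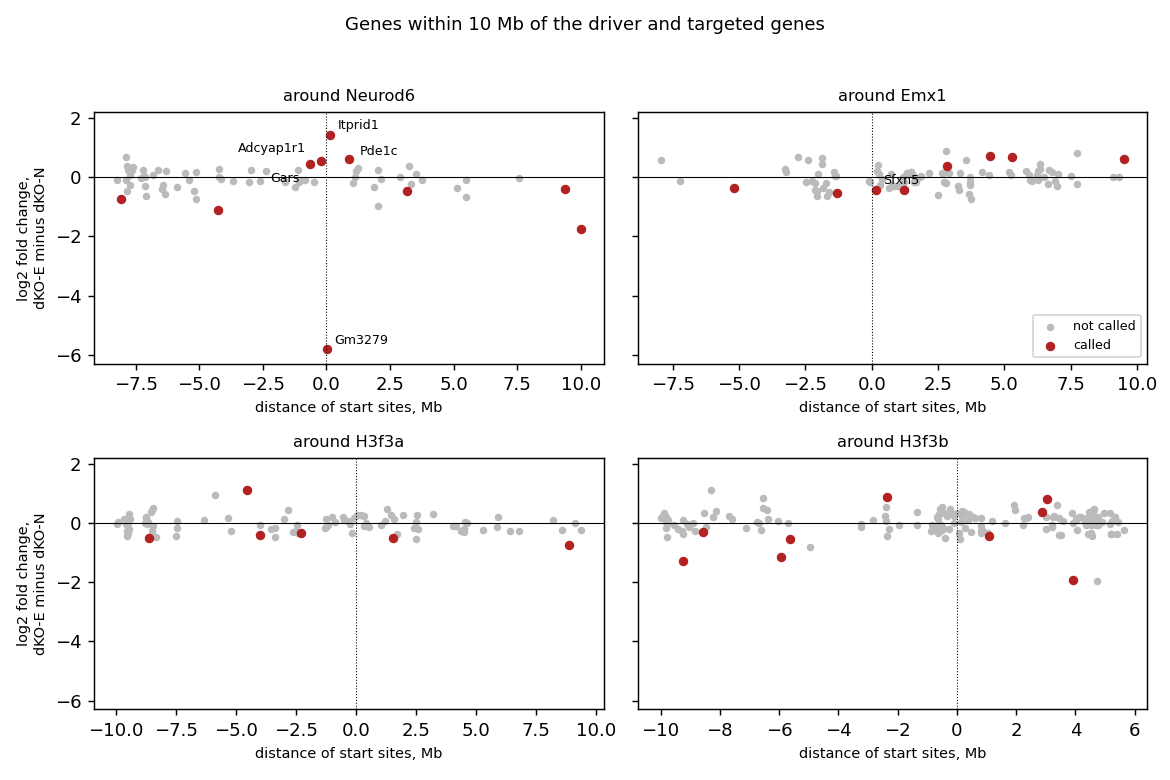
Log2 fold change of dKO-E against dKO-N (vertical axis) for tested genes by the distance of their start from that of Neurod6, Emx1, H3f3a or H3f3b in Mb (horizontal axis); red points passed the test. Called genes cluster beside Neurod6, where Gm3279 lies at -5.80 and the other 4 called genes within 1 Mb lie above 0.

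Across all autosomal genes 752 were called, 353 higher and 399 lower in dKO-E, that is 3.31% and 3.74% of those tested. The median absolute log2 fold change of the called genes was 0.61, and 126 differed at least 2-fold, 69 of them higher and 57 lower. Of the 752, 515 showed no overlap between the 4 and 4 libraries. Over all tested genes, 5.59% lay wholly above and 4.66% wholly below in dKO-E, called or not. Against control, 20.3% of genes were called in dKO-E and 11.4% in dKO-N. The count between the knockouts was 288 without dKO-N 4, 418 without dKO-E 4, 476 without dKO-E 3 and 1039 without dKO-N 2, and it was 223 with the presence of Y-linked counts as a term. When library totals replaced the composition-corrected scaling, 512 genes were higher and 266 lower, a share higher of 65.8% against 46.9%, with the median of all genes at 0.07 on the log2 scale.

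**Figure D3:**
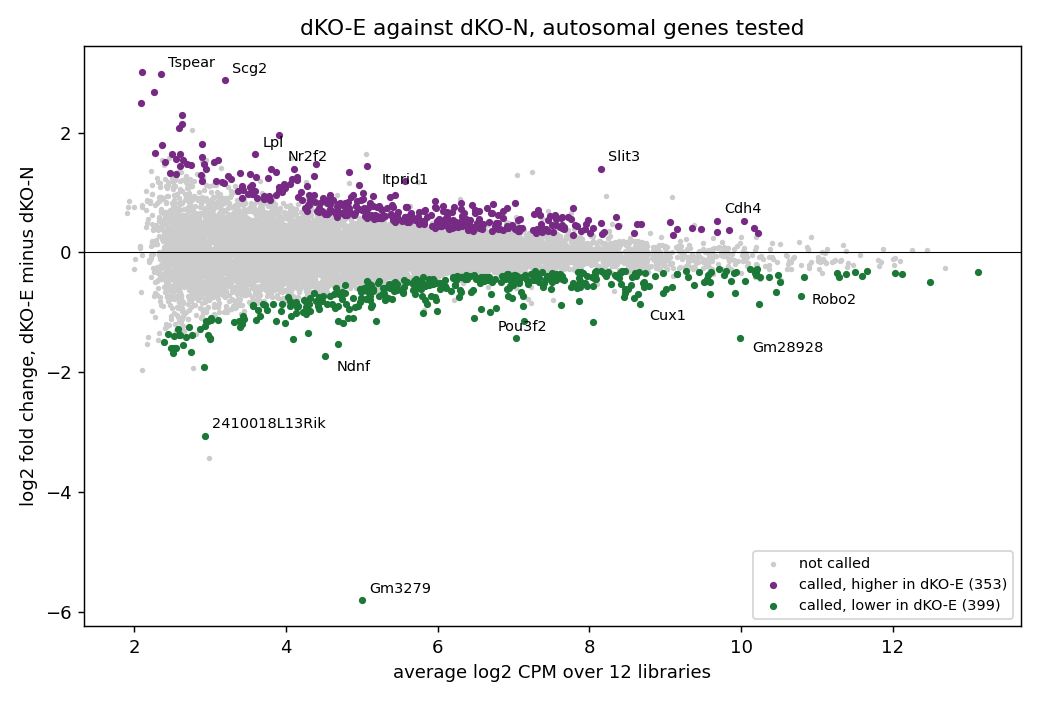
Log2 fold change of dKO-E against dKO-N (vertical axis) against average log2 CPM over the 12 libraries (horizontal axis) for the 10660 autosomal genes tested; purple and green points were called higher (353) and lower (399) in dKO-E. Gm3279 at -5.80 lies far below all other called genes.

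Genes of upper-layer neurons, which connect the cortical areas and hemispheres, were called lower in dKO-E in 9 of 23 tested members and higher in 1. The share called was 43.5%, against 7.05% of all tested genes, and list shares in brackets below compare with the same 7.05%. The list's median log2 fold change was -0.19 against 0.00 over all genes. The transcription factor genes Pou3f2, Cux1, Rorb and Lhx2, the signalling adaptor Dok5 and the growth factor Ptn were all lower, and each of these calls held in every one of the 8 leave-outs. Pou3f2, which promotes the upper-layer fate, measured 180, 164, 179 and 162 CPM in dKO-N against 74.1, 99.9, 101 and 86.5 CPM in dKO-E. The dKO-N libraries lay within or just above the control range of 148 to 170 CPM and all dKO-E libraries lay below it (log2 fold change -0.90, SE 0.11, edgeR adjusted p = 1.52e-06). In Cux1 the order was control, dKO-N, dKO-E. Its values were 371, 350, 428 and 504 CPM in dKO-N and 224, 260, 259 and 281 CPM in dKO-E, with control at 514 to 536 CPM (log2 fold change between the knockouts -0.70, SE 0.10, edgeR adjusted p = 3.17e-05).

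Dok5 and Rorb, the latter a nuclear receptor gene of layer 4, showed the same order with no overlap between any 2 groups. Dok5 measured 148, 151, 212 and 216 CPM in dKO-N and 88.9, 119, 114 and 95.3 CPM in dKO-E, with control at 371 to 414 CPM (log2 fold change between the knockouts -0.81, SE 0.12, edgeR adjusted p = 5.15e-05). Rorb measured 189 to 196 CPM in dKO-N and 106 to 143 CPM in dKO-E, with control at 297 to 363 CPM (log2 fold change -0.55, edgeR adjusted p = 0.000915). Inhba (-0.90) and Unc5d (-0.31) lost their calls in 6 leave-outs each, Inhba in all but those of dKO-N 1 and dKO-E 2 and Unc5d in all but those of dKO-N 1 and 2 (adjusted p up to 0.110 and 0.256).

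Cux2, the other Cut-like gene of the upper layers, gave no call (486, 360, 395 and 409 CPM in dKO-N against 323, 377, 399 and 385 CPM in dKO-E, edgeR adjusted p = 0.393). Lpl, which encodes lipoprotein lipase, was the member called higher in dKO-E. It measured 2.69, 5.54, 4.07 and 4.44 CPM in dKO-N and 3.87, 20.1, 11.9 and 17.2 CPM in dKO-E, where dKO-E 1 lay among the dKO-N values (log2 fold change 1.64, SE 0.39, edgeR adjusted p = 0.00899). The Lpl levels in dKO-N 1 and dKO-N 3 stood for at most 3 counts, treated as not detected. The Lpl call was lost without dKO-N 4 (adjusted p = 0.0653). Cux1, Rorb, Dok5, Ptn and Cux2 were named after their values were seen.

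Genes of layer 6, whose neurons project to the thalamus, were lower in dKO-E in 10 of 22 tested members and higher in 1, with a median log2 fold change of -0.47. Tle4, Syt6, Wnt7b, Sla and Htr1f were lower and Lmo3 was higher with every library left out in turn. The levels of these genes relative to control differed in kind. Tle4, a corepressor gene, measured 423, 360, 380 and 427 CPM in dKO-N and 206, 260, 264 and 259 CPM in dKO-E, and its dKO-N values overlapped those of control (392 to 453 CPM, log2 fold change between the knockouts -0.68, SE 0.10, edgeR adjusted p = 2.28e-05). Wnt7b, a secreted Wnt ligand, measured 106, 119, 107 and 126 CPM in dKO-N and 47.7, 72.1, 89.8 and 63.2 CPM in dKO-E, with control at 49.1 to 57.2 CPM. There dKO-N was the group that stood above control (log2 fold change 1.12, edgeR adjusted p = 9.09e-08), and dKO-E differed from it by -0.75 (SE 0.13, edgeR adjusted p = 0.000517).

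Syt6, a synaptotagmin gene, and Sla, which encodes a Src-like adaptor, followed Wnt7b. The log2 fold change of Syt6 against control was 1.35 in dKO-N and 0.40 in dKO-E, and the library dKO-E 1, at 55.4 CPM, lay below the other 3 of its group (84.2 to 89.8 CPM). Sla measured 159, 152, 178 and 164 CPM in dKO-N and 84.4, 118, 129 and 94.8 CPM in dKO-E, and control held 90.9 to 112 CPM (log2 fold change between the knockouts -0.60, edgeR adjusted p = 0.00119). Htr1f, a serotonin receptor gene, was lower than control in both knockouts and lower again in dKO-E (20.2, 21.3, 36.6 and 26.4 CPM in dKO-N, 11.0, 8.86, 10.8 and 17.2 CPM in dKO-E, log2 fold change -1.14, SE 0.22, edgeR adjusted p = 0.00128). Lmo3, a LIM-only cofactor gene, went the other way, with 86.1, 96.1, 57.0 and 61.3 CPM in dKO-N against 119, 116, 122 and 116 CPM in dKO-E (log2 fold change 0.69, SE 0.13, edgeR adjusted p = 0.000658). The dKO-E libraries of Lmo3 lay between dKO-N and control (134 to 160 CPM).

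The other 5 layer 6 members called lower were Crym (-0.89), Hs3st4 (-0.67), Ntsr1 (-0.63), Foxp2 (-0.54) and Zfpm2 (-0.36). All 5 lost their calls without dKO-N 4 (adjusted p = 0.114, 0.171, 0.296, 0.104 and 0.126). Crym also did so without dKO-N 1 or 3 or dKO-E 2, 3 or 4, Hs3st4 without dKO-N 1 or 3 or dKO-E 4, and Ntsr1 without dKO-E 1. Foxp2 and Zfpm2 did so without dKO-N 3 or dKO-E 3 or 4, Foxp2 also without dKO-E 2 and Zfpm2 also without dKO-N 2. Without dKO-N 4 the list had 5 members called lower instead of 10 (6 without dKO-N 3 or dKO-E 4), and the upper-layer list 6 instead of 9. Both lists had 5 with the presence of Y-linked counts as a term. Layer 5 genes gave 0 higher and 2 lower of 21 (9.52% called), with 0 lower without dKO-N 4 and 1 without dKO-N 3 or dKO-E 2, 3 or 4. Bcl11b and Fezf2, the defining factors of neurons that project below the cortex, were not called (edgeR adjusted p = 0.670 and 0.274), and neither was Tbr1, a defining factor of layer 6 (0.727). Tle4, Sla, Ntsr1, Foxp2, Lmo3, Tbr1, Bcl11b and Fezf2 were named after their values were seen.

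**Figure D4:**
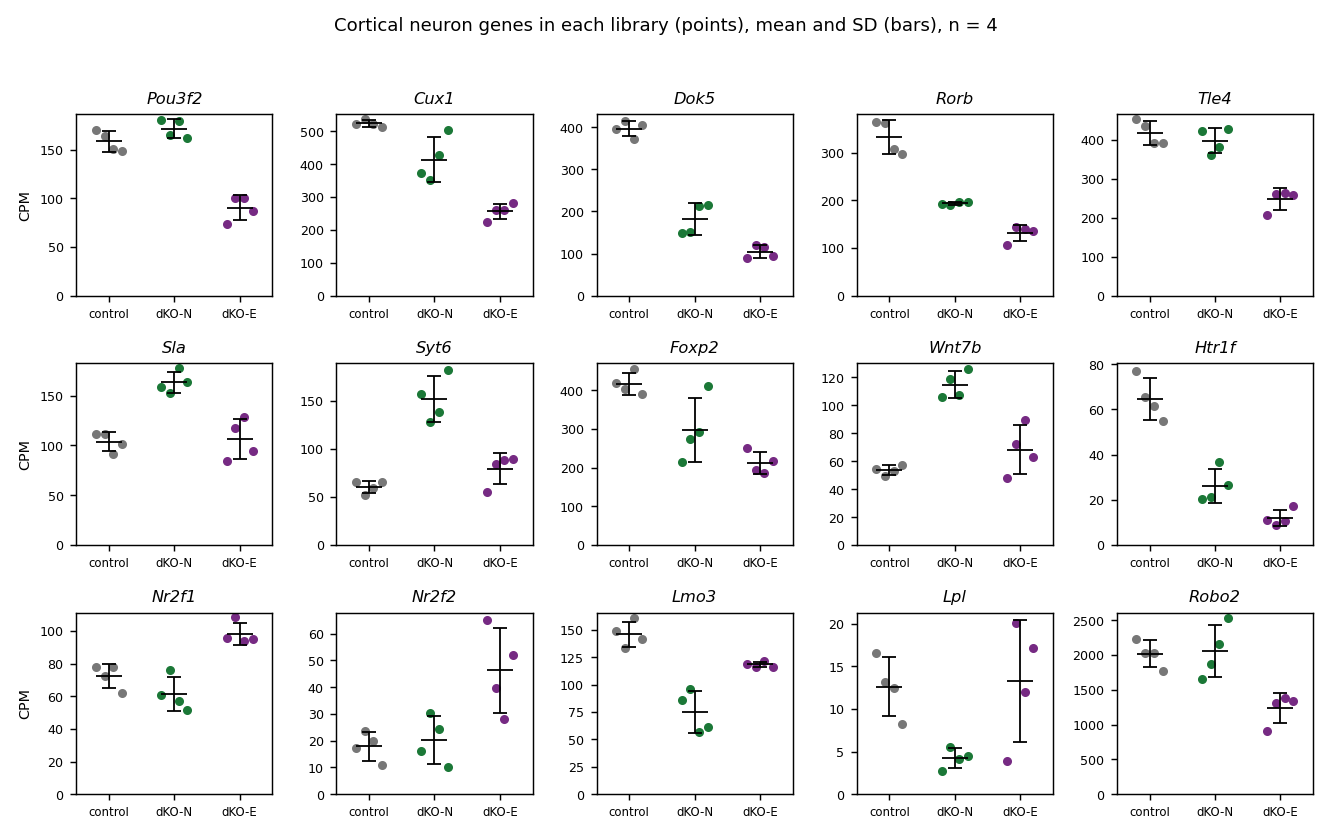
Levels in CPM (vertical axis, starting at 0) of 15 cortical neuron genes by group; points are libraries and bars give the mean and SD of 4. In Pou3f2 and Tle4 dKO-E lies below control and dKO-N overlaps it, Syt6 and Wnt7b are highest in dKO-N, and Nr2f1 and Nr2f2 are highest in dKO-E.

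Regulators that set cortical area and projection identity were lower in 10 of 23 cases and higher in 2 (52.2% called). This list shares 7 of its called members with those above. Those lower numbered 6 without dKO-N 3, dKO-N 4 or dKO-E 4 and 4 with Y-linked counts as a term, and then 1 was higher in each of these 4 fits. The 2 higher ones were the paired nuclear receptor genes Nr2f1 and Nr2f2, also known as COUP-TFI and COUP-TFII. Nr2f1 measured 60.6, 75.8, 57.0 and 51.6 CPM in dKO-N and 95.3, 108, 94.1 and 94.8 CPM in dKO-E, above every library of the other 2 groups (log2 fold change 0.72, SE 0.13, edgeR adjusted p = 0.000517), and its call held in all 8 leave-outs. Nr2f2 measured 16.1, 30.5, 24.4 and 10.1 CPM in dKO-N and 65.1, 39.5, 28.1 and 52.1 CPM in dKO-E. Here dKO-E 3 lay below dKO-N 2 (log2 fold change 1.34, SE 0.37, edgeR adjusted p = 0.0487), and the call was lost in 6 leave-outs, all but those of dKO-N 2 and dKO-E 3 (adjusted p up to 0.208). Among the lower ones, Nfix, a nuclear factor I gene, measured 763, 673, 774 and 701 CPM in dKO-N and 516, 539, 538 and 404 CPM in dKO-E. All dKO-N libraries of Nfix lay within the control range of 613 to 877 CPM (log2 fold change between the knockouts -0.54, SE 0.11, edgeR adjusted p = 0.00148), and the call held in all 8 leave-outs. Bcl11a (-0.67, edgeR adjusted p = 0.0311) held 328 to 354 CPM in dKO-E and 385 to 783 CPM in dKO-N. It lost its call without dKO-N 3 or any 1 of the dKO-E libraries (adjusted p up to 0.0828). Nfix and Bcl11a were named after their values were seen.

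Genes of newborn cortical neurons gave 5 lower and 0 higher of 15 tested (33.3% called), with a median of -0.28. The 5 were Nrn1 (neuritin, -1.19), Elavl2 (an RNA-binding protein gene, -0.58), Draxin (-0.37) and Unc5d (-0.31), both guidance genes, and Sox11 (-0.28). Without dKO-N 4 none of the 5 was called (adjusted p = 0.417, 0.0751, 0.232, 0.256 and 0.154), and without dKO-E 3 or 4 or with Y-linked counts as a term the list also had 0. With library totals 1 was called. Radial glia genes gave 0 higher and 2 lower of 21 (9.52% called). These were Lhx2 and Ptprz1 (-0.35, lost without dKO-N 3 or 4 or dKO-E 1, 3 or 4, adjusted p up to 0.204). Genes of the cell cycle gave 0 higher and 1 lower of 31 (3.23% called). That 1 was Cenpf, a centromere protein gene (-0.76, edgeR adjusted p = 0.0498), which lost its call in 6 leave-outs, all but those of dKO-N 1 and 2 (adjusted p up to 0.488). No member of the intermediate progenitor list was called among 11 tested by edgeR, and 3 had an unadjusted p under 0.05. Eomes, its defining factor, measured 2.69, 14.8, 16.3 and 18.7 CPM in dKO-N and 7.73, 7.25, 9.25 and 4.99 CPM in dKO-E (log2 fold change -0.97, edgeR adjusted p = 0.0609). The library dKO-N 1, at no more than 3 counts, lay below every dKO-E library. Eomes was named after its values were seen.

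Axon guidance genes gave 4 higher and 7 lower of 58 tested, with a median of -0.10. The receptor Robo2 and its ligand Slit3 differed in opposite directions. Robo2 measured 1655, 1876, 2161 and 2527 CPM in dKO-N and 912, 1314, 1375 and 1335 CPM in dKO-E, with control at 1772 to 2234 CPM. All dKO-E libraries lay below all others, and dKO-E 1 lay lowest (log2 fold change -0.74, SE 0.13, edgeR adjusted p = 0.00105). Slit3 measured 195, 271, 219 and 93.0 CPM in dKO-N and 625, 508, 406 and 422 CPM in dKO-E, with control at 118 to 204 CPM. All dKO-E libraries of Slit3 lay above all others (log2 fold change 1.40, SE 0.32, edgeR adjusted p = 0.0307), but its call was lost in 6 leave-outs, all but those of dKO-N 2 and 4 (adjusted p up to 0.0679). Epha4, an ephrin receptor, was lower in dKO-E in all 8 leave-outs (210, 224, 239 and 355 CPM in dKO-N against 182, 176, 179 and 161 CPM in dKO-E, log2 fold change -0.60, edgeR adjusted p = 0.00489). Ntn4, a netrin, was lower (-1.17, edgeR adjusted p = 0.00511) with dKO-N 3 lying below dKO-E 1, and lost its call without dKO-N 4 (adjusted p = 0.110). Without that library the list had 2 called lower and 2 higher, and across all leave-outs 1 to 5 were higher and 2 to 9 lower.

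Genes of mature neurons and synapses gave 4 higher and 4 lower of 48 (16.7% called), and 2 and 2 without dKO-N 4. Without dKO-N 3 or dKO-E 1 or 3, 2 were lower, and with Y-linked counts as a term 0. Among the higher, Gria1, an AMPA receptor subunit, measured 1182, 927, 1272 and 1139 CPM in dKO-N and 1574, 1559, 1430 and 1439 CPM in dKO-E, all above control at 785 to 853 CPM (log2 fold change between the knockouts 0.41, SE 0.09, edgeR adjusted p = 0.00462). Rbfox3, the gene of the neuronal nuclear antigen NeuN, was higher in dKO-E as well (414 to 497 against 563 to 655 CPM, log2 fold change 0.39, edgeR adjusted p = 0.00672), and dKO-E overlapped control (584 to 672 CPM). The scaffold gene Dlg2 was lower (1842, 2109, 2102 and 1566 CPM in dKO-N against 1464, 1398, 1413 and 1450 CPM in dKO-E, log2 fold change -0.41, edgeR adjusted p = 0.00685), and both knockouts lay far below control (3868 to 4699 CPM). These 3 calls held in all 8 leave-outs. Kcnh1, a voltage-gated potassium channel gene, was higher (18.8, 18.5, 12.2 and 8.0 CPM against 43.8, 25.8, 25.4 and 21.1 CPM, log2 fold change 1.19, SE 0.25, edgeR adjusted p = 0.00360), while control held 78.7 to 91.5 CPM. Kcnh1 lost its call without dKO-N 4 (adjusted p = 0.104). In the list of 36 potassium channel genes, 4 were higher and 3 lower (19.4% called), and 1 and 0 without dKO-N 4. Kcnip1, a channel-interacting protein gene, was the one called in all 8 leave-outs (194 to 236 CPM in dKO-N, 269 to 331 CPM in dKO-E, log2 fold change 0.44, edgeR adjusted p = 0.00489). Rbfox3, Dlg2 and Kcnip1 were named after their values were seen.

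Adhesion and signalling genes were called in both directions. Cadherin genes gave 3 higher and 2 lower of 26 (19.2% called), with 0 lower without dKO-N 4. Cdh4 measured 895, 702, 827 and 796 CPM in dKO-N and 921, 1113, 1324 and 1279 CPM in dKO-E, with control at 452 to 529 CPM and no overlap (log2 fold change between the knockouts 0.53, SE 0.10, edgeR adjusted p = 0.00105). Pcdh17 measured 55.2, 75.8, 61.1 and 52.7 CPM in dKO-N against 131, 102, 80.2 and 113 CPM in dKO-E, and control, at 120 to 155 CPM, overlapped dKO-E through the library dKO-E 1 (log2 fold change 0.81, SE 0.14, edgeR adjusted p = 0.000554). Genes of the BMP, TGF-beta and activin pathways gave 2 higher and 3 lower of 33 (15.2% called). Those lower numbered 0 without dKO-N 4, dKO-E 1 or dKO-E 3, with library totals and with Y-linked counts as a term, and the higher ones numbered 1 in 6 of 8 leave-outs. The activin receptor Acvr2a measured 148, 232, 198 and 146 CPM in dKO-N and 262, 257, 317 and 352 CPM in dKO-E, above every control library (159 to 184 CPM, log2 fold change 0.73, SE 0.13, edgeR adjusted p = 0.000703). Of the Wnt genes, 17.9% were called. Of 28 tested, 3 were higher (1 without dKO-E 4) and 2 lower (1 without dKO-N 4 or dKO-E 1, 3 or 4). Lef1, a nuclear effector of Wnt signalling, measured 14.8, 13.9, 14.9 and 21.9 CPM in dKO-N and 39.9, 32.2, 30.5 and 26.0 CPM in dKO-E, with control at 8.15 to 10.7 CPM (log2 fold change 0.84, SE 0.20, edgeR adjusted p = 0.00912). The calls of Cdh4, Pcdh17, Acvr2a and Lef1 held in all 8 leave-outs, but that of Cdh4 was lost with Y-linked counts as a term (edgeR adjusted p = 0.109).

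Cajal-Retzius cells, the early neurons of the cortical surface, were read from 8 tested genes, of which 2 were lower and 1 higher (37.5% called). Ndnf, a secreted neurotrophic factor gene, measured 26.9, 29.6, 21.7 and 34.1 CPM in dKO-N and 14.2, 8.46, 6.94 and 7.20 CPM in dKO-E. The dKO-N values overlapped those of control (25 to 31.1 CPM) and the dKO-E values did not (log2 fold change between the knockouts -1.73, SE 0.23, edgeR adjusted p = 8.30e-06). Reln, the secreted glycoprotein that guides neuronal layering and is also made by interneurons, measured 376, 433, 342 and 441 CPM in dKO-N and 301, 290, 213 and 253 CPM in dKO-E, again with dKO-N near control (366 to 439 CPM, log2 fold change -0.61, SE 0.10, edgeR adjusted p = 0.000380). Ebf3, a transcription factor gene of the same cells, was higher in dKO-E (4.04, 13.9, 1.36 and 8.89 CPM against 29.6, 20.5, 17.3 and 16.1 CPM, log2 fold change 1.34, SE 0.30, edgeR adjusted p = 0.00507). Its levels in dKO-N 1 and dKO-N 3 stood for at most 3 counts, treated as not detected, so the fold rests on few molecules there. All 3 calls held in the 8 leave-outs, in opposite directions. The summed level of the list's 11 genes was 446 to 584 CPM in dKO-N and 320 to 574 CPM in dKO-E, so its range overlapped.

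Among the remaining regulators, Ezh2, the catalytic subunit of Polycomb repressive complex 2, measured 163, 129, 141 and 244 CPM in dKO-N and 99.9, 119, 102 and 104 CPM in dKO-E (log2 fold change -0.73, SE 0.14, edgeR adjusted p = 0.00356). All dKO-E libraries of Ezh2 lay below all dKO-N libraries and below control (131 to 148 CPM), and the call held in all 8 leave-outs. The whole list of Polycomb and Trithorax genes had 1 higher and 2 lower of 38, a share of 7.89%, near the 7.05% of all tested genes. It had 0 and 1 without dKO-N 3, dKO-N 4 or dKO-E 1, 2 or 4. Meg3, a maternally expressed noncoding RNA gene, was higher in dKO-E in all 8 leave-outs, although dKO-N 1 lay at the low end of the dKO-E range (1192, 871, 924 and 658 CPM against 1323, 1308, 1191 and 1365 CPM, log2 fold change 0.52, SE 0.12, edgeR adjusted p = 0.00879). It was 1 of 2 higher among 27 imprinted genes (7.41% called), and 1 was higher in 7 of 8 leave-outs. Of 25 replication-coupled histone genes none was called by edgeR, with 2 at an unadjusted p under 0.05, and of 69 ribosomal protein genes none was called, with 4 at an unadjusted p under 0.05. The called entry Hist1h2al, typed as a pseudogene, is not in the histone list and is described below. Of 20 p53 targets and cell death genes 1 was higher and 1 lower (10.0% called). Of 17 subplate neuron genes 1 was higher and 2 lower (17.6%), and of 8 genes of H3.3 chaperones 1 was higher (12.5%). Without dKO-N 4, and with Y-linked counts as a term, none of the p53 or subplate genes was called. That chaperone gene was Dek (0.50, edgeR adjusted p = 0.0207), whose call was lost without dKO-N 2 or 4 or dKO-E 2 or 4 (adjusted p up to 0.0954).

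The 15 largest higher and 15 largest lower differences were taken among called genes without overlap between the groups and averaging 3 or more on the log2 CPM scale. Of these 30, 11 held in all 8 leave-outs. On the higher side they were Scg2 (secretogranin 2, log2 fold change 2.87), Itprid1 (1.45), Ebf3 (1.34) and Rassf8 (1.28), and on the lower side Ndnf (-1.73), Hist1h2al (-1.44), Zfp975 (-1.15), Htr1f (-1.14), Mir124a-1hg (-1.10), Ints6 (-1.01) and Trpc4 (-1.0). Scg2, a granin of secretory vesicles, rested on few molecules, with 1, 0, 2 and 2 counts in dKO-N against 11, 18, 14 and 13 in dKO-E. Its dKO-N libraries were all at or under 3 counts, so the fitted fold is not a bound, and control held 27 to 35 counts. Rassf8, a tumour suppressor family gene, measured 12.1, 15.7, 17.6 and 11.9 CPM in dKO-N and 36.1, 32.2, 29.3 and 36.0 CPM in dKO-E (edgeR adjusted p = 0.000219). Ints6, a subunit of the Integrator complex that cleaves small nuclear RNAs, measured 51.1, 64.7, 69.2 and 87.7 CPM in dKO-N and 30.3, 34.2, 38.5 and 38.2 CPM in dKO-E (edgeR adjusted p = 5.15e-05). Control lay within the dKO-N range for Ints6 (54.5 to 72.0 CPM) and overlapped its lower end for Rassf8 (8.18 to 13.4 CPM). Hist1h2al is typed as a processed pseudogene and its reads may be shared with other histone genes.

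The other 19 of the 30 lost their call in at least 1 leave-out. Of the higher ones, Prkg2 (a cGMP-dependent kinase gene, log2 fold change 1.53), Cpne8 (a copine gene, 1.40), Slc16a14 (1.26), Nbn (a DNA repair gene, 1.25) and Kcnh1 (1.19) lost it without dKO-N 4 alone (adjusted p = 0.0590, 0.0541, 0.201, 0.120 and 0.104). The lower genes Thap2 (-1.35), Fam151b (-1.25) and Zfp808 (-1.14) lost it there alone as well (adjusted p = 0.319, 0.115 and 0.0938). Bicc1 (an RNA-binding protein gene, 1.30) lost it without dKO-E 2 alone (adjusted p = 0.0513). Zfp365 (1.32) did so without dKO-N 4 or dKO-E 2, Tpd52l1 (1.23) without dKO-N 4 or dKO-E 1 or 3, Zfp128 (-1.15) without dKO-N 3 or 4 or dKO-E 4, and Rnf122 (-1.06) without dKO-N 4 or dKO-E 2 or 4 (adjusted p up to 0.166, 0.178, 0.175 and 0.249). Abca8a (a lipid transporter gene, -1.13) did so without dKO-N 3 or dKO-E 1 or 3 (adjusted p up to 0.118). Slit3 is described above. Oprm1 (the mu opioid receptor gene, 1.39) lost its call in all leave-outs but those of dKO-E 2 and 3, Cdh22 (1.19) in all but that of dKO-N 2, and Pantr1 (-1.43) in all but those of dKO-N 1 and 2 (adjusted p up to 0.175, 0.190 and 0.144). Fgf10 (a fibroblast growth factor gene, -1.10) lost it without dKO-N 2, 3 or 4 or dKO-E 1 or 4 (adjusted p up to 0.0831).

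Outside these extremes, 5 genes with high levels separated the knockouts cleanly in all 8 leave-outs. Grm3, a metabotropic glutamate receptor gene, measured 338, 305, 347 and 397 CPM in dKO-N and 166, 229, 232 and 201 CPM in dKO-E (log2 fold change -0.75, SE 0.10, edgeR adjusted p = 2.06e-05). Luzp2, a leucine zipper gene, measured 332, 420, 474 and 542 CPM against 254, 247, 245 and 234 CPM (log2 fold change -0.87, SE 0.11, edgeR adjusted p = 1.86e-05). Both were higher in control than in dKO-E, at 471 to 553 and 428 to 581 CPM. Slc24a3, a sodium, potassium and calcium exchanger gene, measured 94.2, 84.1, 84.2 and 59.3 CPM in dKO-N and 138, 130, 122 and 150 CPM in dKO-E (log2 fold change 0.82, SE 0.13, edgeR adjusted p = 0.000162). Nebl, which encodes the actin-binding protein nebulette, measured 112, 95.2, 84.2 and 79.4 CPM against 168, 138, 138 and 165 CPM (log2 fold change 0.75, SE 0.12, edgeR adjusted p = 0.000165). Colec12, a scavenger receptor gene, was higher than control in both knockouts and higher in dKO-E than in dKO-N (60.6, 37.0, 43.4 and 36.1 CPM against 65.1, 69.7, 107 and 82.6 CPM, log2 fold change 0.96, SE 0.17, edgeR adjusted p = 0.000566). These 5 were chosen after their values were seen.

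Markers of other cell types were read in the same libraries. Of interneuron genes 3 of 19 were lower (15.8% called). These were Reln, Cxcr4 (-1.13, lost without dKO-N 2 or 4 or dKO-E 2 or 4, adjusted p up to 0.180) and Npas1 (-0.81, lost in all leave-outs but those of dKO-N 2 and dKO-E 2, adjusted p up to 0.243). Of 12 oligodendrocyte precursor genes 1 was lower (8.33% called), and 0 without dKO-N 3 or 4 or dKO-E 1, 3 or 4. Of 15 astrocyte genes 1 was higher (6.67% called). This was Aldh1l1, an astrocyte folate enzyme gene (0.70), whose call was lost without dKO-N 3 or 4 or dKO-E 2, 3 or 4 (adjusted p up to 0.140). Of 7 tested thalamus and hypothalamus genes 2 were higher, Lef1 and Ntng1 (0.56), and 1 was lower, Lhx2 (42.9% called). The Ntng1 call was lost without dKO-E 1 (edgeR adjusted p = 0.0513). The summed level of that list was 233 to 318 CPM in dKO-N and 271 to 376 CPM in dKO-E, highest in dKO-E 1. No tested gene of striatal neurons (8), red blood cells (5), choroid plexus (1), meninges (3), blood vessel walls (15) or microglia (3) was called by edgeR. At an unadjusted p under 0.05 there were 2 vessel, 1 red blood cell and 3 striatal genes, and 0 of the others. The summed level of 14 meningeal genes was 90.9 to 109 CPM in dKO-N and 105 to 224 CPM in dKO-E, highest in dKO-E 1, against 41.6 to 63.9 CPM in control. The summed level of 16 striatal genes was highest in dKO-N 4 (2927 CPM, where the rest of dKO-N held 1745 to 2062 CPM and dKO-E 1790 to 1889 CPM). Ttr and Otx2 of the choroid plexus list were at 0 in all dKO-N and all control libraries. In dKO-N so were Folr1, Aqp1, Kl and Slc4a5 of the same list and Slc22a6, Slc6a13 and Lum of the meningeal list. Slc22a6 and Aldh1a2 of the meningeal list were at 0 in all control libraries. No member of either list was at 0 in all dKO-E libraries. The dKO-N libraries other than dKO-N 4 were the shallowest of the 12. The part of these differences, of depth and of the Y-linked counts in the results above was not tested.

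**Figure D5:**
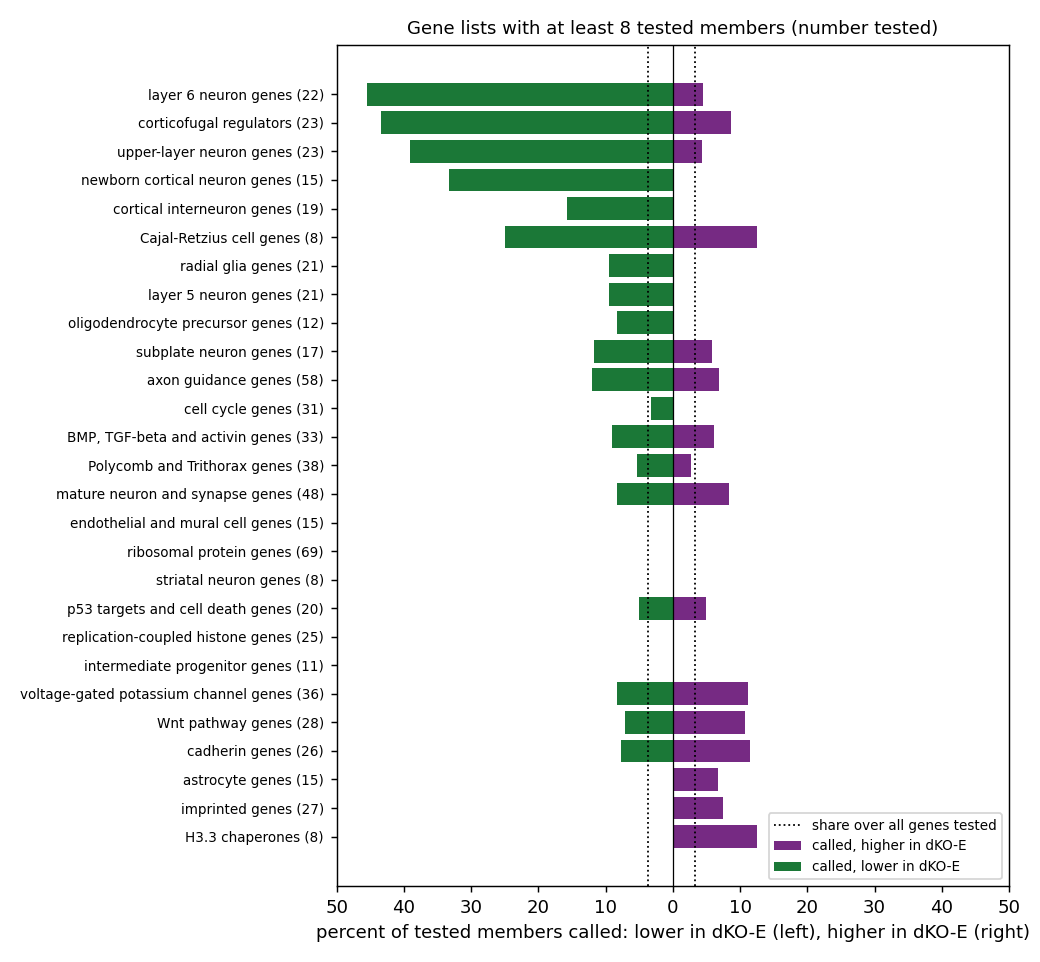
Percent of the tested members of each gene list called lower (left, green) or higher (right, purple) in dKO-E than in dKO-N, for lists with at least 8 tested members (number in brackets); dotted lines mark 3.74% and 3.31%, the shares over all genes. The layer 6, corticofugal and upper-layer lists reach farthest to the left, and the ribosomal protein and histone lists show no bar.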

How the data were processed

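Raw counts per gene were used as the authors deposited them, in whole numbers with no normalization, 1 file per library. STAR, HTSeq and UMI-tools on build mm10 are named per the submitters' processing notes. The sources used here do not state the tool versions, the annotation or the strand setting. The 5 summary lines per file were dropped (85.2% to 88.9% of each library's counts lay in genes). Among them was the line of ambiguous reads, with 2.0% to 2.2% of each library's counts, so genes that overlap may have lost reads. Of 51912 gene lines, 51719 matched GENCODE M21, from which chromosomes and gene types were taken.

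Libraries were grouped by title. Autosomal genes passing filterByExpr (minimum count 10) were fitted in edgeR 4.0.16 (R 4.3.3) with TMM factors and a robust quasi-likelihood model of group over all 12 libraries, with 9 residual degrees of freedom and a common coefficient of variation of 10.4%. The contrast was dKO-E minus dKO-N. P-values were adjusted by Benjamini-Hochberg over the 10660 genes, and genes under 0.05 are called. CPM is per 1000000 of the TMM-scaled total, and an SE is the log2 fold change over the square root of its F statistic, in size. The script was tested on simulated data. Counting intervals were not used, since the replicate libraries carry the error.

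The comparison, its members and the gene lists were chosen with earlier results of these data known. Named were the 15 largest higher and 15 largest lower called genes without overlap, up to 4 called members of each list (or, with none called, up to 2 of the highest expressed), called genes within 1 Mb and up to 4 within 5 Mb of the targeted and driver genes, and those genes themselves. Predicted-model names stayed out of the largest 30. Not all genes that this rule names are described, and 1 gene is not reported here.

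Replicate numbers are shared by the groups, but the 4 same-numbered pairs of knockout libraries had correlations of -0.06 to 0.01 across genes, so they were not treated as pairs. Libraries within a group differed by more than sampling noise (1.56 to 5.45 as chi-square over its degrees of freedom). Alternatives covered scaling, DESeq2 1.42.0, filters, depth, the libraries and genes fitted, the Y-linked counts, the replicate block and leaving out each knockout library. The series' chromatin and single-nucleus assays were not analysed here.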

Additional observations from a re-analysis of the deposited data

Results flagged for a closer look

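In 246 groups of 4 libraries, each the CPM of 1 named gene in 1 knockout, Dixon's test set 12 libraries apart from the other 3 of their group, and chance does so in about 1 of 20 groups. The library dKO-E 1 accounted for 8 of the 12. It was lowest in Robo2 (911.55 CPM against 1314.4 to 1374.6), Meis2 (881.27 against 986.81 to 1001.1), Pde1c (157.19 against 174.77 to 175.13), Syt6 (55.401 against 84.163 to 89.783), Cdh6 (39.941 against 60.41 to 62.832) and Fam104a (21.903 against 31.007 to 32.765). It was highest in Chd7 (179.73 against 121.81 to 128.58) and in the imprinted gene Mest (47.027 against 28.819 to 30.202). The library dKO-E 2 was highest in Nr2f1 (108.32 against 94.056 to 95.342), and dKO-E 3 was lowest in Scg2 (5.3966 against 7.0862 to 7.2485). The library dKO-N 4 was highest in Itprid1 (37.33 CPM against 11.089 to 14.93) and Lef1 (21.924 against 13.861 to 14.93).

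On the Y chromosome, which stayed out of the comparison, dKO-E 3 held 1035 counts and dKO-E 4 held 274 counts of 4 genes, against 0 to 3 in the other libraries. Xist counts were 2 and 4 in the same pair of libraries, against 1680 and 2744 in dKO-E 1 and 2. They were 893 to 4604 in dKO-N and 2180 to 3426 in control. So dKO-E was mixed in both the Y-linked and the Xist counts, while dKO-N and control were not.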

How the results depend on the processing

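No named gene that was called changed direction in an alternative that tested it, with 122 to 145 of 145 named genes tested. Of genes not called, Tbr1 ranged from -0.05 to 0.18 over the leave-outs. The count of 752 called genes (353 higher, 399 lower) became 481 (237, 244) with the 8 knockout libraries alone, 316 (159, 157) after thinning to 722080 counts, 500 (213, 287) in DESeq2, 223 (109, 114) with Y-linked counts as a term and 199 (101, 98) without the dKO-E libraries that hold them. The last 2 leave dKO-E 1 and 2 to carry the difference. Library totals gave 512 higher and 266 lower. Leaving out 1 knockout library gave 288 to 1039 in all, 134 to 456 higher and 154 to 583 lower. The count was lowest without dKO-N 4, and 33.2% of 5125 well expressed genes had that library farthest from the dKO-N median (dKO-E 1 in its group, 36.4%). With the replicate block, 508 were called (263, 245), 498 of them among the 752. Other settings (RLE factors, no filter, a minimum count of 30, all chromosomes, without control 1 and 3) gave 581 to 810. Of 99 called genes named by rule, 30 held in all 8 leave-outs, 35 without dKO-N 4, 34 with the Y-linked term and 39 after thinning. Some genes described above as holding in all 8 leave-outs lost their call with the Y-linked term. These were Cdh4 (edgeR adjusted p = 0.109), Hist1h2al (0.125), Dlg2 (0.0671), Epha4 (0.0660), Lhx2 (0.0570), Nfix (0.0559), Trpc4 (0.0526), Ezh2 (0.0525) and Meg3 (0.0525). All of them also lost it without the dKO-E libraries that hold Y-linked counts. So did Itprid1 (edgeR adjusted p = 0.0567), Reln (0.0565), Rbfox3 (0.0599), Colec12 (0.0700) and Gm28928 (0.0612), the last described below. After thinning, Lhx2 (0.112), Hist1h2al (0.0873), Ebf3 (0.0844) and Trpc4 (0.0598) lost theirs. A gene under about 4 CPM in the shallowest dKO-N libraries rested on at most 3 counts there.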

Other observations

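Noncoding RNA genes, looked at after the values were seen, were called in 49 of 436 tested cases, 12 higher and 37 lower in dKO-E (11.2%, median log2 fold change -0.11). Protein-coding genes were called in 697 of 10072 cases, 337 higher and 360 lower (6.92%, median 0.005). A stretch of chromosome 1 held 4 of the lower ones, Gm29260 (chr1:41781808-41939560), Gm28175 (chr1:42261855-42304412), Pantr1 (chr1:42590782-42694842) and Pantr2 (chr1:42707061-42713454), the last pair on the minus strand. Gm28175 measured 183, 174, 225 and 177 CPM in dKO-N and 70.2, 95.4, 89.4 and 81.5 CPM in dKO-E, with control at 141 to 166 CPM (log2 fold change -1.14, SE 0.11, edgeR adjusted p = 1.03e-08), and no 2 groups overlapped. Gm29260 (-1.16), Pantr1 (-1.43) and Pantr2 (-1.14) were highest in dKO-N 4, at 635, 326 and 16.6 CPM. Pantr1 and Pantr2 lost their calls without that library (adjusted p = 0.144 and 0.766) and without any 1 of the dKO-E libraries (adjusted p up to 0.117 and 0.130), Pantr1 also without dKO-N 3, and Gm29260 lost it without dKO-E 1, 3 or 4 (adjusted p up to 0.0603). Pou3f3, a neighbouring upper-layer gene of the same family as Pou3f2, was listed at 0 in all 12 libraries. So were Sox2, Tubb3 and the ribosomal protein gene Rpl13, so the 0 may come from the counting and was not read as absence of RNA. The reason was not tested. Gm28928, a long noncoding gene elsewhere on chromosome 1, measured 1398, 785, 1299 and 1019 CPM in dKO-N and 305, 584, 347 and 420 CPM in dKO-E, with control at 1348 to 1592 CPM (log2 fold change -1.43, SE 0.22, edgeR adjusted p = 0.00462). The host genes of the neuronal microRNAs miR-124 and miR-9, Mir124a-1hg (-1.10) and Mir9-3hg (-0.55), and C130071C03Rik (-0.57) were lower as well, and the calls of Gm28175, Gm28928 and these 3 held in all 8 leave-outs.

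Besides Gm3279, a noncoding gene on chromosome 12, 2410018L13Rik, was higher in dKO-N than in both other groups (25.6, 21.3, 17.6 and 13.3 CPM, against 1.29, 3.22, 0.771 and 3.33 in dKO-E and 2.56 to 4.59 in control, edgeR adjusted p = 4.25e-06). Tspear showed the reverse, with 27, 28, 18 and 9 counts in dKO-E and 1 to 3 counts in each other library. Longer genes were called more often in these data, at 2.36%, 5.67%, 7.69% and 12.5% from the shortest to the longest of 4 groups of 2665 genes, in the longest with 134 higher and 199 lower. The gene lists were not matched for length.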
